A study of Mus musculus with 6 samples.

Results

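The genes described here are the 6 mouse genes of the cyclin-dependent kinase (CDK) inhibitor group: Cdkn1a, which encodes p21, Cdkn1b, which encodes p27, Cdkn2a, which encodes both p16Ink4a and p19Arf, Cdkn2b (p15Ink4b), Cdkn2c (p18Ink4c) and Cdkn2d (p19Ink4d). They were chosen by name, not by their values. All 6 were found among the 17254 gene identifiers of the series, and all 6 were among the 12813 genes that passed the filter on low counts and were tested. RNA was from mouse neural stem/progenitor cell cultures kept in N2 medium with EGF and bFGF, and the stated aim of the series is to follow gene expression after intracellular redox potential was shifted. There were 3 groups of 2 libraries: cells given PQ for 48 h, cells given NAC for 48 h, and control cells. The labels spell out neither abbreviation, and they give no dose, strain, age or number of animals.

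A cell divides when cyclins switch on their partner kinases. The kinases CDK4 and CDK6 with D-type cyclins, and then CDK2 with cyclin E, phosphorylate the retinoblastoma family proteins and so free E2F factors to drive S phase genes. Proteins of the Cip/Kip family (p21, p27 and p57, the product of Cdkn1c) bind complexes of cyclin and CDK, while those of the INK4 family (p15, p16, p18 and the Cdkn2d product p19) bind CDK4 and CDK6 alone. Cdkn1a is a classic target gene of p53, p27 is controlled largely by the degradation of its protein, and the Cdkn2a and Cdkn2b locus is kept silent in young stem cells by Polycomb proteins. In the neural stem cells of the mouse brain, p21 and p27 are known as limits on how often stem cells and their progeny divide.

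The libraries held 9680436 to 10698241 summed expected counts, which are the read counts per gene as estimated by the authors. Levels below are CPM (counts scaled to the library total, with TMM scaling between libraries) for comparing libraries, and the authors' FPKM (counts scaled to gene length and library total) for comparing genes. The labels do not state whether both libraries of a group derive from separate cultures or animals, and p-values therefore measure only how far these libraries spread, possibly for technical reasons. In bulk RNA, fewer cells that express a gene and less RNA per cell cannot be told apart. Neural stem cell markers were present, with 466.3 to 719 CPM for Nes and 295 to 413 CPM for Sox2, although Prom1 and Hes5 had at most 0.416 CPM. The neuronal marker Rbfox3, the oligodendrocyte markers Mog and Mag, the blood cell genes Tyrobp and Hbb-bs and the endothelial marker Cldn5 were at 0 in all 6 libraries. Other members of the same lists were not at 0. Among them were Map2 (180 to 359 CPM), Cnp (130 to 154 CPM), Flt1 (80.8 to 121 CPM) and P2ry12 (3.03 to 8.99 CPM). The 7 astrocyte markers summed to 138 to 148 CPM in PQ cultures, 257 to 258 CPM in NAC cultures and 126 to 137 CPM in control cultures. The neuron list summed to 312 to 326 CPM with PQ, 386 to 408 CPM with NAC and 292 to 296 CPM in control, and the 14 neural stem cell markers to 7583 to 7775 CPM with PQ, 5577 to 5630 CPM with NAC and 7236 to 7374 CPM in control. Members went different ways. With NAC, against control, Map2 was higher (359 and 318 against 194 and 204 CPM). Nefl was lower (32.9 and 51.7 against 86.9 and 79.8 CPM). Vim was lower (2467 and 2489 against 4306 and 4058 CPM). Slc1a3 was higher (529 and 520 against 396 and 460 CPM). For NAC against control 2 of 6 tested neuron genes were called higher and 2 lower. Of 12 stem cell genes 1 was higher and 3 lower (8.65% and 9.26% of all genes). The part of these shifts in the results was not tested.

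None of the 6 genes was at or near 0: the lowest expected count was 120, for Cdkn2a in a PQ library and for Cdkn2b in a NAC library. Per length, Cdkn1a was the most abundant in every library and Cdkn1b the next. On the FPKM scale Cdkn1a had 536 and 576 in PQ cultures, 118 and 136 in NAC cultures and 242 and 243 in control cultures, and its mean over libraries exceeded that of 98.5% of the genes tested. The order of levels in control cultures was Cdkn1a, Cdkn1b, Cdkn2c, Cdkn2d, Cdkn2a and Cdkn2b, with no overlap between neighbours, and NAC cultures had that same order, also without overlap. PQ cultures differed at one place, where Cdkn2c (22.9 and 20.5 FPKM) and Cdkn2d (22.3 and 20.9 FPKM) overlapped. The expected counts of all 6 genes were whole numbers in all 6 libraries, while 20.9% to 21.4% of all listed values were not.

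**Figure D1:**
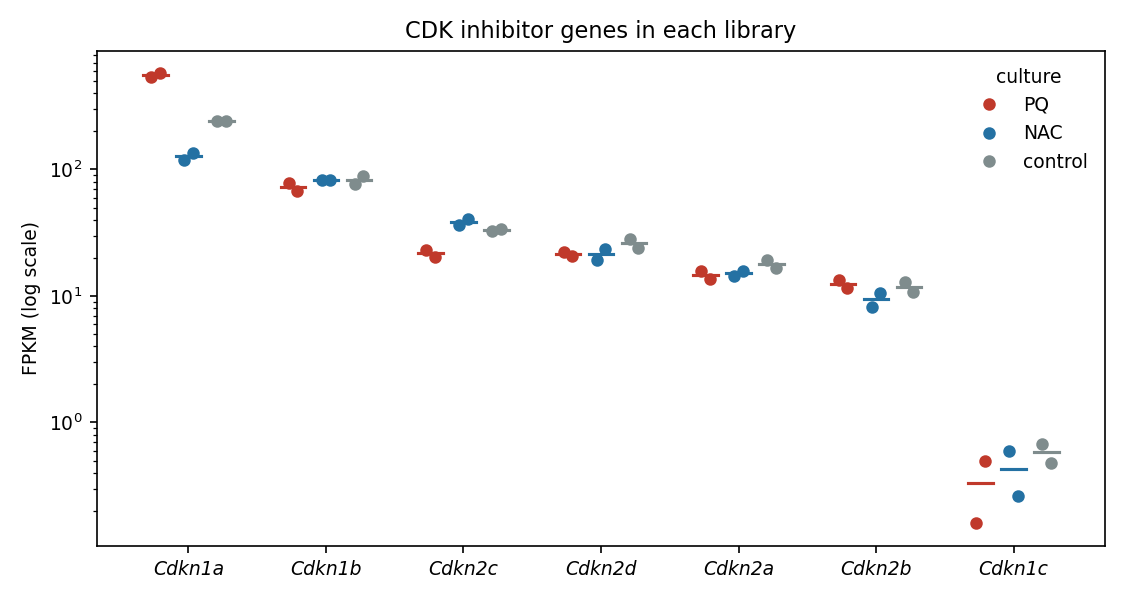
FPKM on a log axis (vertical) of each CDK inhibitor gene (horizontal) in PQ, NAC and control cultures, with 1 point per library and a bar at the mean of 2. Cdkn1a separates into 3 levels (536 and 576 FPKM with PQ, 118 and 136 with NAC, 242 and 243 in control), and Cdkn1c lies below 1 FPKM in every library.

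Cdkn1a rose with PQ and fell with NAC, the one gene of the 6 with a call in each comparison. It lies on chromosome 17 of the GRCm38 assembly, from 29090979 to 29100722, on the plus strand. Its level was 1032 and 1084 CPM in PQ cultures, 223 and 255 CPM in NAC cultures and 468 and 473 CPM in control cultures. The 3 groups did not overlap, and the 2 control libraries lay within a few CPM of each other. Against control it rose 2.25-fold with PQ (log2 fold change 1.17 ± 0.09, SE, n = 2 each, 95% interval of the fold 1.97 to 2.57, edgeR adjusted p = 4.3e-07). With NAC it fell by 0.98 on the log2 scale, which is 1.97-fold lower than control (95% interval 1.72 to 2.26, edgeR adjusted p = 8e-07). These comparisons share the control libraries.

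Set directly against NAC cultures, PQ cultures had 4.43-fold more Cdkn1a RNA (log2 fold change 2.15 ± 0.10, 95% interval of the fold 3.86 to 5.09). Its edgeR adjusted p of 1.9e-10 came from the smallest p of all 12813 genes in that comparison. By the same ranking it stood at place 7 for PQ against control and at place 74 for NAC against control. In all 14 alternatives run for each comparison its direction and its side of the threshold were kept, and its log2 fold change ranged over 1.13 to 1.21 for PQ against control, -1.08 to -0.88 for NAC against control and 2.05 to 2.25 for PQ against NAC.

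Cdkn1a has 2 annotated RefSeq transcripts, whose starts lie 2790 bases apart, at 29090979 and 29093769. The gene length listed in the 6 files was 1912.71 to 1915.81 bases. The Ensembl transcripts matched to them in the GENCODE annotation measure 922 bases from the upstream start and 1913 bases from the downstream start. The listed lengths exceed the longer of these in part, so the files rest on other transcript lengths than this annotation, and no use of either start was derived from them. The stretches before both starts are shown because the gene's change was the largest of the group and because p53 binding upstream of it is well known. They are the 250 bases before each start, plus strand, from RefSeq (GRCm38.p6), with matches to the p53 decamer motif and to the Sp1 box GGGCGG in capitals, both strands searched.
Cdkn1a upstream start, chr17:29090729-29090978: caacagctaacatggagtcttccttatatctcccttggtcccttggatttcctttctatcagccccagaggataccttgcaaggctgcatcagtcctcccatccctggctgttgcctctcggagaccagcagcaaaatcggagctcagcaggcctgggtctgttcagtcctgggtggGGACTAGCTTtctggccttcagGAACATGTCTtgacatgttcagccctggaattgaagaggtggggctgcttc
Cdkn1a downstream start, chr17:29093519-29093768: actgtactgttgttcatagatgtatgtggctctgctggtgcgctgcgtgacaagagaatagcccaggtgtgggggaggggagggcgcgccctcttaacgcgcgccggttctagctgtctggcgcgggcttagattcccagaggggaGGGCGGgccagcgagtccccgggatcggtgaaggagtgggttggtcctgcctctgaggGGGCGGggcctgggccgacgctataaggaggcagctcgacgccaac
The upstream stretch holds 2 p53 decamers, which begin 73 and 51 bases before that start and do not overlap. The one at 51 bases is followed directly by a second decamer that departs from the motif at 1 base, as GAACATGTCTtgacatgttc, and lies 2841 bases before the downstream start. At least 1 such decamer is found in 7.13% of the 32851 stretches of 250 bases in the table, and 2 or more in 0.259%. Of the other inhibitor genes Cdkn2d, which did not pass in any comparison, also has 1 p53 decamer. It begins 102 bases before the start used for that search, 21291209 on the minus strand. Both that start and the decamer lie inside the limits of the gene, which reach 21291421, and the matched Ensembl transcript starts at 21291308. The downstream stretch holds 2 Sp1 boxes, a motif found in 32.7% of all stretches. A match is a description of the letters, and nothing here measures binding. A transcript on the opposite strand that is not in the files covers 7.68% of the gene's exonic bases and all of the downstream stretch.

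Cdkn1b, the p27 gene (chromosome 6, 134920401 to 134925525, plus strand), was much steadier. It had 188 and 160.1 CPM in PQ cultures, 195 and 194 CPM in NAC cultures and 186 and 219 CPM in control cultures. The PQ and NAC ranges both overlap that of control, whose libraries lie farther apart than those of NAC. The log2 fold change was -0.22 ± 0.10 for PQ against control (95% interval -0.44 to -0.0006, edgeR adjusted p = 0.16, unadjusted p = 0.049). It was -0.06 ± 0.10 for NAC against control (-0.28 to 0.16, edgeR adjusted p = 0.76) and -0.16 ± 0.10 for PQ against NAC (-0.38 to 0.06, edgeR adjusted p = 0.26). None of the 3 passed, and the intervals allow a decrease of up to 1.36-fold with PQ against control. Leaving out control replicate 1 took the PQ value past the threshold (-0.34, edgeR adjusted p = 0.042), and leaving out control replicate 2 turned the NAC value positive (0.0705, edgeR adjusted p = 0.76).

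**Figure D2:**
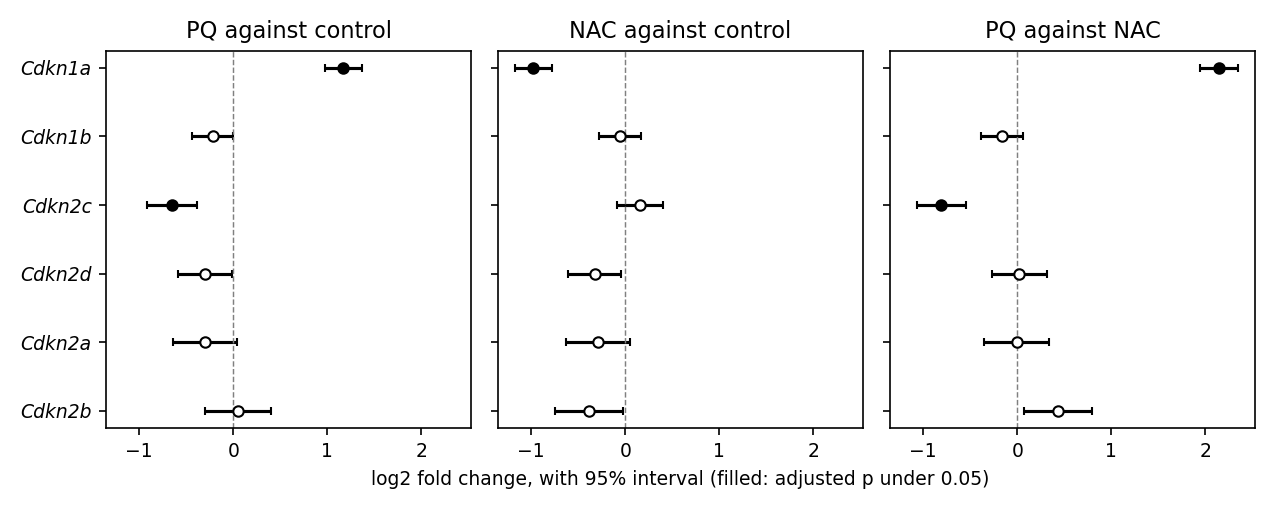
Log2 fold change (horizontal) of each CDK inhibitor gene in the 3 comparisons, with 95% intervals from the edgeR fit over all 6 libraries and filled points for an adjusted p under 0.05. The filled points are Cdkn1a in all 3 panels (1.17, -0.98 and 2.15) and Cdkn2c in those with PQ (-0.65 against control and -0.81 against NAC).

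Among the INK4 genes Cdkn2c moved, and it did so in the direction opposite to Cdkn1a. This gene for p18, known in the developing brain from cycling progenitors, lies on chromosome 4 from 109660876 to 109666756 on the minus strand. Its level was 25.4 and 22.2 CPM in PQ cultures, 39.8 and 43.5 CPM in NAC cultures and 36.5 and 38.2 CPM in control cultures. Both PQ libraries lay below all others, and the NAC libraries lay just above those of control. It fell with PQ by 0.65 ± 0.12 on the log2 scale against control (1.57-fold lower, 95% interval 1.31 to 1.88, edgeR adjusted p = 0.0013). Against NAC it was 1.75-fold lower (log2 fold change -0.81 ± 0.12, edgeR adjusted p = 7.2e-05). For NAC against control the log2 fold change was 0.16 ± 0.12 (95% interval -0.09 to 0.40, edgeR adjusted p = 0.41), which did not pass. Both calls were kept in all 14 alternatives, and the weakest edgeR adjusted p on leaving out 1 library was 0.044 for PQ against control.

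Cdkn2d (chromosome 9, 21288459 to 21291421, minus strand) encodes the INK4 protein p19, known from mouse neurons and their precursors. It had 28.2 and 25.9 CPM in PQ cultures, 24.1 and 29.1 CPM in NAC cultures and 35.6 and 31 CPM in control cultures. Both control libraries were above all 4 treated ones. The log2 fold changes were -0.30 ± 0.14 with PQ (95% interval -0.59 to -0.02, edgeR adjusted p = 0.14) and -0.32 ± 0.13 with NAC (-0.61 to -0.04, edgeR adjusted p = 0.11), so neither passed although the unadjusted p was 0.039 for PQ and 0.027 for NAC. PQ and NAC cultures overlapped (0.02 ± 0.14, edgeR adjusted p = 0.92, 95% interval -0.26 to 0.31).

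Cdkn2a and Cdkn2b lie 11669 bases apart on the minus strand of chromosome 4, at 89274473 to 89294619 and at 89306289 to 89311032. Cdkn2a, whose products guard against overgrowth through both the retinoblastoma and p53 routes, had 13.5 and 11.4 CPM in PQ cultures, 12 and 13 CPM in NAC cultures and 16.4 and 14.2 CPM in control cultures. Its log2 fold change was -0.30 ± 0.16 with PQ (95% interval -0.64 to 0.04, edgeR adjusted p = 0.23) and -0.29 ± 0.16 with NAC (-0.63 to 0.05, edgeR adjusted p = 0.24). In PQ against NAC it was -0.01 ± 0.17 (-0.36 to 0.34, edgeR adjusted p = 0.98). Treated libraries were below both control libraries, by less than these tests call. The files give 1 value for both products and none for p16Ink4a or p19Arf alone.

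Cdkn2b, the p15 gene known as a target of TGF-beta signals, had 18.6 and 15.8 CPM in PQ cultures, 11.1 and 14.4 CPM in NAC cultures and 18.1 and 15.2 CPM in control cultures. PQ and control cultures overlapped, and both NAC libraries were the lowest. The log2 fold change was 0.05 ± 0.17 for PQ against control (95% interval -0.30 to 0.40, edgeR adjusted p = 0.89). For NAC against control it was -0.39 ± 0.17 (-0.75 to -0.03, edgeR adjusted p = 0.13, unadjusted p = 0.037), which did not pass. For PQ against NAC it was 0.43 ± 0.17 (0.07 to 0.79, edgeR adjusted p = 0.063, unadjusted p = 0.021). That value did not pass, yet 5 of 14 alternatives took it past the threshold, with an adjusted p of 0.037 to 0.41 over the 14. Leaving out control replicate 1, control replicate 2 or NAC replicate 2 was enough (edgeR adjusted p = 0.039, 0.039 and 0.037). The value for PQ against control turned negative on leaving out control replicate 2 (-0.07) or PQ replicate 1 (-0.0754).

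Counted over the group, PQ against control called 1 of 6 inhibitor genes higher and 1 lower, where 9.07% of all genes tested were called higher and 8.8% lower. NAC against control called 1 of 6 lower, against 9.26% of all genes (8.65% were called higher). PQ against NAC called 1 higher and 1 lower, against 15.5% and 15.1%. With 6 genes these shares do not stand apart from the background. The median log2 fold change of the 6 was -0.26 with PQ and -0.31 with NAC against control, and 0.01 for PQ against NAC, beside medians of 0.00 over all genes tested in each comparison. With scaling by library size only, the split of all calls for NAC against control was 1392 higher and 986 lower, in place of 1108 higher and 1186 lower, and the inhibitor genes kept their calls.

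The third Cip/Kip gene, Cdkn1c, which encodes p57 and is imprinted, was near 0. It had expected counts of 3 and 10 in PQ cultures, 12 and 5 in NAC cultures and 13 and 9 in control cultures, at 0.16 to 0.68 FPKM. The groups overlapped, and the intervals of its log2 fold change were wide (-2.06 to 0.47 for PQ against control and -1.66 to 0.73 for NAC against control, edgeR adjusted p = 0.41 and 0.63). An antisense gene covers 30.7% of its exonic bases.

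Summed over the 6 genes, inhibitor RNA was 688 and 710 FPKM in PQ cultures, 278 and 308 FPKM in NAC cultures and 410.5 and 417 FPKM in control cultures. Cdkn1a made up 77.9% and 81.1% of that sum with PQ, 42.4% and 44.1% with NAC and 58.9% and 58.2% in control. Without it the other 5 genes summed to 152 and 134 FPKM in PQ cultures, 160.3 and 172 FPKM in NAC cultures and 169 and 174 FPKM in control cultures. The ratio of Cdkn1a to Cdkn1b FPKM was 6.93 and 8.54 with PQ, 1.44 and 1.65 with NAC and 3.17 and 2.72 in control. These sums are descriptions of the libraries.

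**Figure D3:**
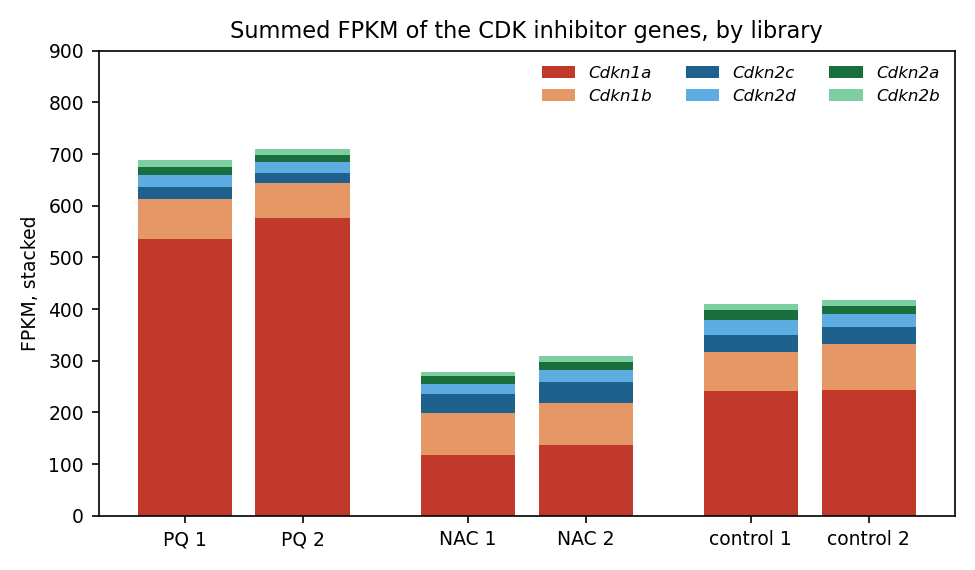
FPKM of the CDK inhibitor genes stacked for each library (vertical), with PQ, NAC and control libraries side by side. Totals are 688 and 710 with PQ, 278 and 308 with NAC and 410.5 and 417 in control, and the Cdkn1a segment accounts for 77.9% to 81.1% of them with PQ, 42.4% to 44.1% with NAC and 58.2% to 58.9% in control.

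The p53 pathway list holds inducers of Cdkn1a and other target genes of p53. Most of its members rose with PQ and a part of them fell with NAC. Cdkn1a itself is not in the list, and much of it was already known to move in these data, so it is no independent evidence. Over all genes tested 9.07% were called higher with PQ and 8.8% lower. With PQ 15 of 26 tested genes rose and 2 fell (13 to 15 rose on leaving out any 1 library), with a median log2 fold change of 0.62. They included the cyclin-like gene Ccng1 (2.5-fold), the death receptor gene Eda2r (2.48-fold) and Trp53inp1 (2.47-fold), and Mdm2, the ligase that degrades p53, rose 1.58-fold. Ddit4 and Sesn2, stress genes that curb mTOR, fell by 0.56 and 0.50 on the log2 scale, and leaving out PQ replicate 2 ended both calls while leaving out control replicate 2 or PQ replicate 1 left 1.

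With NAC 9 of the 26 fell and 3 rose, with a median of -0.15. Over all genes 9.26% were called lower with NAC and 8.65% higher, so the 3 increases are near that share. The genes that fell included Ddit4 (2.89-fold), Sesn2 (2.56-fold) and Mdm2 (1.36-fold), and those that rose were Fas, a death receptor gene (0.96 ± 0.17), Trp53 (0.32 ± 0.10) and Eda2r (0.32 ± 0.10). Only 1 of these 3 still passed without PQ replicate 1, PQ replicate 2, NAC replicate 1 or NAC replicate 2. In PQ against NAC 18 of 26 were higher and 2 lower, and the lower ones, Sesn1 (-0.56 ± 0.13) and Gadd45a (-0.61 ± 0.17), did not pass without PQ replicate 2. A gene on the other strand covers 19.1% of the exonic bases of Gadd45a, and the strand setting of the counting is not given. In PQ against NAC 15.5% of all genes were called higher and 15.1% lower, so the 2 lower genes do not exceed the share. Higher members were Ccng1 (3.55-fold), Trp53inp1 (2.54-fold) and the DNA polymerase gene Polk (2.35-fold). Trp53 RNA was 141 and 147 CPM with PQ, 168 and 169.9 CPM with NAC and 149 and 122 CPM in control, highest in the NAC libraries and overlapping between PQ and control (PQ against control 0.09 ± 0.10, edgeR adjusted p = 0.61).

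**Figure D4:**
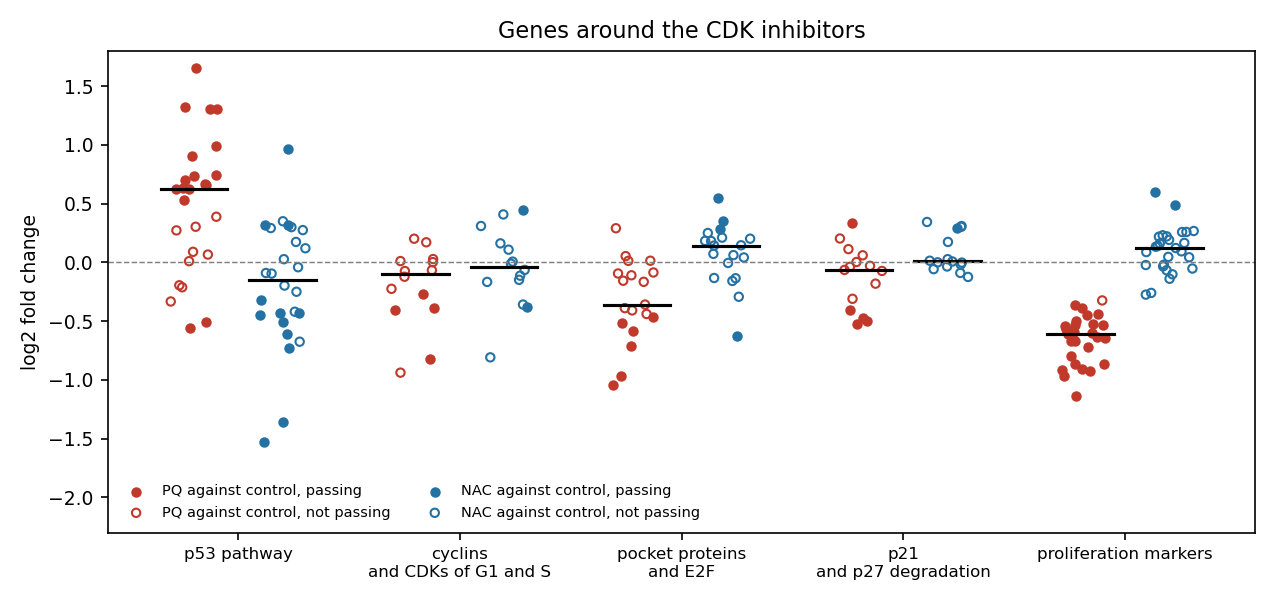
Log2 fold change (vertical) of each tested gene of 5 lists for PQ against control and NAC against control, filled where the adjusted p is under 0.05, with a black bar at each list's median and sideways scatter only for legibility. Medians are 0.62 with PQ and -0.15 with NAC for the p53 pathway, and -0.61 with PQ and 0.12 with NAC for the proliferation markers.

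Of 14 kinases and cyclins that the inhibitors act on or that share their phase, 4 fell with PQ (8.8% of all genes tested were called lower) and the other 10 did not pass (median -0.10). The 4 were Ccna2 (1.77-fold), Ccnd2 (1.33-fold), Ccne2 (1.31-fold) and Cdk4 (1.2-fold), and 2 fell without control replicate 1 or PQ replicate 1 and 1 without PQ replicate 2. Cdk4, the shared target of the INK4 proteins, had 355 and 383 CPM with PQ, 431 and 463 CPM with NAC and 461 and 428 CPM in control (edgeR adjusted p = 0.049 for PQ against control). Ccnd1, which encodes a D-type cyclin, had 3829 and 3878 CPM with PQ, 3451 and 3450.1 CPM with NAC and 3874 and 3775 CPM in control, and passed in no comparison (edgeR adjusted p of 0.16 to 0.95). Cdk6 (0.17 ± 0.14 with PQ and -0.06 ± 0.14 with NAC) and Ccne1 (0.03 ± 0.16 and 0.41 ± 0.15) did not pass either. Cdk2 was lower with PQ than with NAC (-0.53 ± 0.12) without passing against control.

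Over all genes 8.65% were called higher and 9.26% lower with NAC, and 15.5% and 15.1% in PQ against NAC. With NAC the list gave 1 higher gene, Ccne2 (0.45 ± 0.11), and 1 lower, Ccnd2 (-0.38 ± 0.09), near those shares. The higher count was 3 without control replicate 1 and 0 without control replicate 2 or NAC replicate 1, and the lower count 2 without either control library. PQ against NAC gave 4 lower, Ccna2 (-0.81 ± 0.10), Ccne2 (-0.84 ± 0.11), Cdk2 and Cdk4 (-0.28 ± 0.09), and without NAC replicate 1 there was also 1 higher. Genes on the other strand cover 23.4% of the exonic bases of Ccnd1, 19.7% of Cdk4, 17.4% of Ccne2 and 12.5% of Ccna2, and the strand setting of the counting is not given.

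Pocket proteins and E2F factors stand downstream of these kinases. Over all genes 8.8% were called lower with PQ. With NAC 8.65% were called higher and 9.26% lower, and in PQ against NAC 15.5% higher and 15.1% lower. A single call in a direction among the 19 tested does not exceed any of these shares. With PQ 6 of 19 fell (median -0.36), among them Mybl2 (2.06-fold), E2f8 (1.95-fold) and Foxm1 (1.63-fold), the first and last of which drive G2 and M phase genes. In NAC against control 3 rose, E2f7 (0.55 ± 0.14), E2f3 (0.35 ± 0.11) and Tfdp1 (0.28 ± 0.09), and E2f1 fell (-0.63 ± 0.13). The count of 3 was 0 without control replicate 2 or NAC replicate 1 and 1 without PQ replicate 1, PQ replicate 2 or NAC replicate 2, and 2 fell without control replicate 1. In PQ against NAC 13 were lower, E2f7 2.02-fold, E2f8 1.94-fold and Foxm1 1.85-fold, and Rb1, the retinoblastoma gene, was higher (0.35 ± 0.11). The count of 13 was 8 without PQ replicate 1 or PQ replicate 2 and 7 without NAC replicate 1, and Rb1 did not pass without PQ replicate 1 or NAC replicate 2. On the other strand, Rcbtb2 covers 8.11% and Lpar6 6.78% of the exonic bases of Rb1, and Gm2788 covers 11.2% of those of E2f8.

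Genes that act in the degradation of p21 and p27 protein fell in part with PQ, where 8.8% of all genes were called lower and 9.07% higher. The 4 of 15 that fell were Cks1b (-0.53 ± 0.11), Cdc20 (-0.50 ± 0.11), Cks2 (-0.47 ± 0.12) and Skp2 (-0.41 ± 0.13), where Skp2 and Cks1b form the receptor that binds p27 for ubiquitination. Cul4b rose (0.33 ± 0.10), and 1 of 15 does not exceed the share of all genes called higher. Without PQ replicate 2 neither the 4 nor Cul4b passed, and Cul4b did not pass without any other PQ or control library either. Cul4b also rose with NAC (0.30 ± 0.10, edgeR adjusted p = 0.05), the 1 call of the list there, beside 8.65% of all genes called higher. Dtl (0.34 ± 0.12) and Cdc20 (0.30 ± 0.11) came next with NAC and did not pass. That count of 1 was 3 without control replicate 1, and 0 without control replicate 2, PQ replicate 1, PQ replicate 2 or NAC replicate 1. In PQ against NAC 15.1% of all genes were called lower. Of the 15 here 5 were lower, Cdc20 (1.74-fold), Skp2 (1.64-fold), Dtl (1.57-fold), which directs p21 to destruction in S phase, Cks1b (1.44-fold) and Cks2 (1.3-fold).

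A list of FoxO, Akt and growth signal genes holds regulators known for p27. All 14 were tested, and 8.8% of all genes were called lower with PQ. Stmn1, which encodes a microtubule regulator that p27 binds (-0.56 ± 0.09), and Foxo6 (-1.19 ± 0.39) fell with PQ, and the count of these 2 decreases was 1 without any 1 control or PQ library. With NAC the growth factor target Myc (1.63-fold), Akt2 (1.35-fold) and Foxo4 (1.56-fold) rose, and Foxo6 was 2.36-fold lower than in control (edgeR adjusted p = 0.032). Over all genes 8.65% were called higher with NAC and 9.26% lower. Foxo6 was low in every group, with means of 1.34 CPM with PQ, 1.31 CPM with NAC and 3.07 CPM in control. PQ against NAC gave 6 of 14 lower, including Myc (1.7-fold) and Stmn1 (1.61-fold), beside 15.1% of all genes. Foxo3 was higher (1.41-fold), where 15.5% of all genes were called higher. The 6 were 3 without PQ replicate 1.

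Polycomb proteins and other regulators of the Cdkn2a and Cdkn2b locus were mostly below the threshold. With PQ 4 of 25 fell, beside 8.8% of all genes, Ezh2, the histone methyltransferase of Polycomb complex PRC2 (-0.62 ± 0.10), Phc1 (-0.45 ± 0.10), Suz12 (-0.43 ± 0.11) and Phc3 (-0.29 ± 0.10), and the count was 1 without PQ replicate 2. Hmga2, a chromatin protein known to hold down Cdkn2a expression in mouse neural stem cells, had 1.71-fold the control level with PQ and fell 1.34-fold with NAC, and stood 2.29-fold higher with PQ than with NAC. Cdkn2a did not pass in any of these comparisons. With NAC Pcgf2 (-0.66 ± 0.14) and Id1 (-0.49 ± 0.15) also fell and Ets1 rose (0.40 ± 0.12). These calls, 3 of 25 lower with Hmga2 included and 1 higher, are near the shares of all genes (9.26% lower and 8.65% higher). Without control replicate 1 the counts were 5 lower and 2 higher, while without control replicate 2 or NAC replicate 2 Ets1 was lost. PQ against NAC gave 4 lower of 25 tested, Phc1 (1.61-fold), Ezh2 (1.43-fold), Cbx2 (1.48-fold) and Phc3 (1.21-fold). Over all genes 15.1% were called lower there, so this count is near the background, and 15.5% were called higher. The 4 were 2 without PQ replicate 2 or NAC replicate 2, and Pcgf2 was higher (0.39 ± 0.14), and the count of 2 higher genes was 1 without any 1 PQ or NAC library.

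TGF-beta signal genes and factors upstream of Cdkn2b gave at most 2 calls in a direction among 13 tested, near the shares over all genes (8.65% to 15.5% over the comparisons and directions below). Tgfb2 rose with PQ (0.33 ± 0.10), but not without control replicate 1, PQ replicate 1 or PQ replicate 2, and 1 gene fell without control replicate 1. With NAC the receptor gene Tgfbr1 rose (0.36 ± 0.11), and Tgfbr2 (-0.36 ± 0.10) and Klf4 (-0.49 ± 0.13) fell. Tgfbr1 was lost without control replicate 2 or NAC replicate 1, and the count of 2 decreases was 1 without any 1 control or NAC library. Klf4, a factor known to act with p53 on Cdkn1a, and Tgfbr2 were higher with PQ than with NAC (0.58 ± 0.13 and 0.35 ± 0.10), a count of 2 that was 1 without PQ replicate 1, PQ replicate 2 or NAC replicate 2.

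Markers of dividing cells fell with PQ, against 8.8% of all genes called lower. Of 27 genes 26 fell (19 to 26 on leaving out any 1 library), with a median of -0.61, and the other, Nusap1, did not pass. Mki67 was at 520.4 and 450.2 CPM with PQ, 1366 and 1190 CPM with NAC and 1082 and 1055 CPM in control, a log2 fold change of -1.14 ± 0.10 with PQ. Aurkb (1.95-fold) and Mcm5 (1.9-fold) were next by p. With NAC 2 of 27 were called higher, near the 8.65% of all genes called higher: Cdc6 (0.60 ± 0.14) and Mcm4 (0.48 ± 0.11), which load and form the replicative helicase, with a median of 0.12 and 25 genes not passing. The 2 were 4 without control replicate 1, 0 without control replicate 2 or NAC replicate 1, and 6 with scaling by library size only. Rrm2 came next by p (-0.26 ± 0.09, edgeR adjusted p = 0.051). Mki67 was 0.26 ± 0.10 for NAC against control and did not pass (edgeR adjusted p = 0.074). In PQ against NAC 26 of 27 were lower, Mki67 2.63-fold, Mcm3 2.18-fold and Mcm5 2.13-fold, and the other was Aurka.

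Genes whose profile over the 6 libraries lay nearest to that of an inhibitor gene were found by the root mean square difference of centred log2 CPM, among 10766 other genes with a mean of at least 5 CPM. Nearest to Cdkn1a were Ggta1, a galactosyltransferase gene (difference 0.10, Pearson r 0.99), Gda, which encodes guanine deaminase (0.11, r 0.99), Pqlc3 (0.14, r 0.99), Rgs8, a regulator of G protein signals (0.15, r 0.99), and Areg, the EGF receptor ligand amphiregulin (0.16, r 0.98). Ggta1 had 27.6 and 26.6 CPM with PQ, 5.75 and 5.84 CPM with NAC and 13.2 and 13.1 CPM in control, and Areg had 119 and 102 CPM with PQ, 26.7 and 26 CPM with NAC and 41.2 and 51.9 CPM in control. Nearest to Cdkn2c were Dus4l, a dihydrouridine synthase gene (0.06, r 0.99), Phf19, which encodes a PRC2 partner (0.06, r 0.99), Tmed3 (0.06, r 0.99), Spag5, a spindle gene (0.07, r 0.99), and Cntrl, a centriole gene (0.07, r 0.98). Spag5 had 83.9 and 78.2 CPM with PQ, 129 and 131 CPM with NAC and 126 and 127 CPM in control. With 6 libraries in 3 groups these likenesses describe the group levels and little else.

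**Figure D5:**
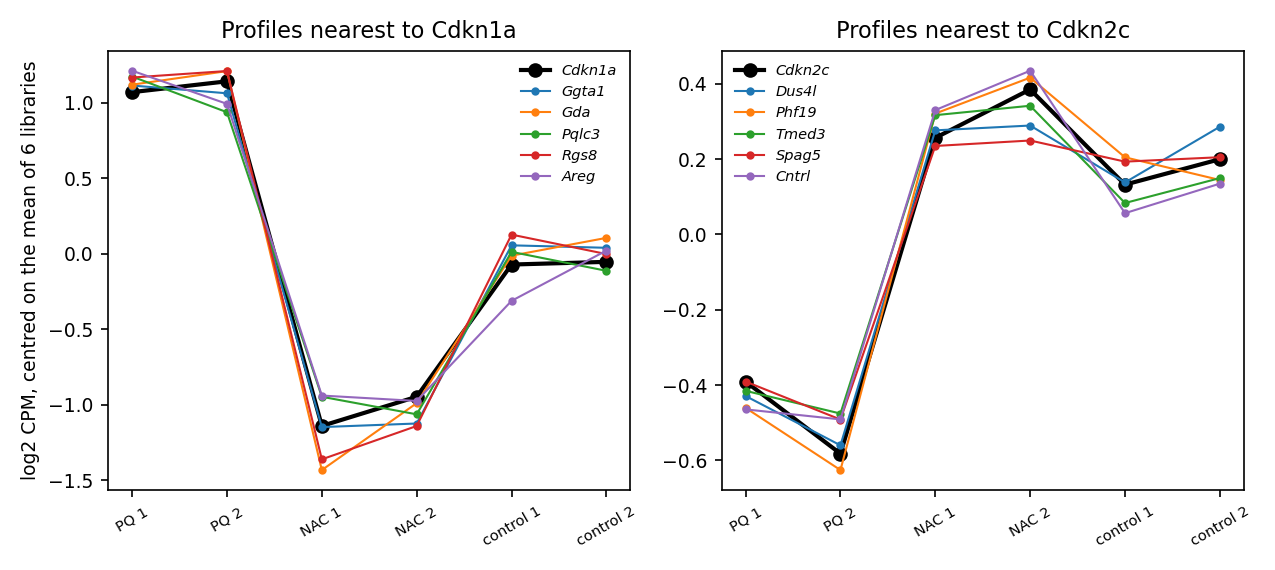
Log2 CPM centred on the mean of 6 libraries (vertical) for Cdkn1a and Cdkn2c, in black, and the 5 genes with the nearest profile to each, by library (horizontal, lines only join the points of a gene). The Cdkn1a set is highest in the PQ libraries and lowest in the NAC libraries, and the Cdkn2c set is lowest in the PQ libraries.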

How the data were processed

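The deposited tables list per gene an expected count (estimated, not whole for 20.9% to 21.4% of values), an FPKM value and a length, per the file headers. Tools listed in the submitters' processing notes were RSEM, Bowtie2 2.2.5 and HISAT2 2.0.4, with the build mm10 and no roles. The strand setting of the counting is not given in the sources used here. Genes absent from a table were set to 0. Of 17254 identifiers 17199 had a RefSeq symbol, and the others held 0.0724% to 0.0789% of counts.

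Expected counts were rounded and tested with edgeR 4.0.16 (R 4.3.3, limma 3.58.1): filterByExpr (minimum count 10, minimum total 15), TMM, and a quasi-likelihood model of the 6 libraries with a mean for each group (3 residual degrees of freedom). Benjamini-Hochberg adjustment ran over 12813 genes, with a threshold of 0.05. SE was taken as the log2 fold change, unsigned, over the root of the F statistic, and 95% intervals use the fit's total degrees of freedom. The procedure was tested on simulated data. Alternatives were other scalings, DESeq2 1.42.0, no filter, a robust fit, 2 groups only, limma on log2(FPKM + 0.1) and log2(FPKM + 1), and leaving out each library.

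The members and 9 gene lists (p53 pathway, cyclins and CDKs, pocket proteins and E2F, degradation, FoxO and Akt, Polycomb, TGF-beta, proliferation, Cdkn1c) were chosen with earlier results of these data known. Named were all members, a fixed panel, the 3 genes of a list with the smallest p per comparison, every gene where 5 or fewer of a list moved one way, and the 5 nearest profiles. Aurka, Nusap1 and other list members outside that rule were named after their values were seen. Some results of the FoxO and Akt list are not reported here. Figures used Python 3.11.15, pandas 2.3.3 and matplotlib 3.10.9.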

Additional observations from a re-analysis of the deposited data

How the results depend on the processing

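Of 252 values of the 6 genes under alternatives (18 results, 14 alternatives each), 239 kept their direction and side of the threshold, 6 came to pass it, 7 changed sign and 0 lost a call. The cause was not tested in any of them. Leaving out 1 library took the log2 fold change of Cdkn1b over -0.34 to -0.10 for PQ against control and -0.17 to 0.0705 for NAC against control. It took Cdkn2b over -0.0754 to 0.18 for PQ against control and 0.26 to 0.62 for PQ against NAC, and in PQ against NAC Cdkn2a over -0.14 to 0.11 and Cdkn2d over -0.11 to 0.16. Cdkn2b in PQ against NAC also passed without a filter on low counts (0.43, edgeR adjusted p = 0.038) and in the fit of 2 groups (0.43, 0.042). The number of genes called, 2289 for PQ against control, 2294 for NAC against control and 3926 for PQ against NAC, ranged over 829 to 2181, 1338 to 2157 and 2427 to 4442 on leaving out 1 library. With limma on log2(FPKM + 0.1) it was 952 for PQ against control and 1281 for NAC against control. DESeq2 called 1672, 1718 and 2980. The sample titles carry running numbers, 8 to 10 for 1 library of each group and 11 to 13 for the other, and no label says that these mark batches. A replicate block by these numbers, added after the data were seen, left all 18 results of the 6 genes on their side of the threshold and called 1842 genes for PQ against control, 1901 for NAC against control and 3485 for PQ against NAC. Deviations of libraries with title numbers in the same range (8 to 10 or 11 to 13) correlated at 0.11 between PQ and NAC, -0.07 between PQ and control and -0.11 between NAC and control. With 1 library of each group in each range, these correlations cannot settle whether the samples were made in pairs. The main fit holds no pairing because no label gives one. Cdkn2a and Cdkn2b had 120 to 179 counts per library and the widest intervals of the 6 genes.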
